A study of Homo sapiens with 6 samples.

Results

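The AP-1 and immediate early genes FOS, FOSB, FOSL1, FOSL2, JUN, JUNB, JUND, EGR1, IER2 and ATF3 were examined in SW480 cells, a line established from a human colon adenocarcinoma. They are a list of 10 named genes out of 56303 gene symbols in the count table, taken by name with no threshold on their values. The list was chosen with earlier results of these data known. Cells were infected with lentivirus carrying a non-silencing hairpin (shCtrl) or a hairpin against the splicing factor RBM39 (shRBM39), and both groups were selected with puromycin. The methods call the products stable clonal lines, so differences between clones and differences due to RBM39 cannot be told apart, and a response to vector or drug that the groups share cannot show. The labels give the genotypes as WT and RBM39 knockdown, with 3 libraries in each group, and the methods speak of 3 replicate experiments. Neither source says whether the replicates came from separate infections, so the p-values measure only the spread between these libraries, which may be technical. Effects of the hairpin on other transcripts cannot be told apart from those of RBM39 loss.

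AP-1 is a dimeric transcription factor built from Jun proteins (JUN, JUNB, JUND) with each other, with Fos proteins (FOS, FOSB, FOSL1 also known as FRA1, FOSL2 also known as FRA2) or with relatives such as ATF3. These proteins share a basic leucine zipper, the bZIP, which both pairs the subunits and binds DNA. Many of the genes are immediate early genes: growth factors and stress switch them on through mitogen-activated protein kinases (MAP kinases) without new protein synthesis, and their mRNAs are usually short-lived. EGR1 is a zinc finger transcription factor of the same early response, and IER2 encodes a small nuclear protein induced with it. In colon cancer lines with active RAS signalling, FOSL1 is known as an AP-1 subunit kept high by the ERK pathway.

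Upstream sequences are shown for EGR1 and JUND because they were the members whose 250 bases before the transcription start held any of 4 motifs searched for on both strands. RefSeq promoters (GRCh38.p14) were matched for 9 of the 10 genes; FOSL1 was not matched. The letters searched were TGANTCA for the AP-1 site or TRE, TGACGTCA for the cyclic AMP response element or CRE, GCGNGGGCG for the EGR site, and the CArG box bound by serum response factor. Capitals mark the matches, which are descriptions of letters and not of binding. Only these letters were counted, so variants such as tgacatca in the JUN and ATF3 windows, close to the CRE letters, were passed over. The JUN and FOSL2 windows lie inside the span of these genes in the count table, whose starts differ from those of RefSeq. The EGR1 window lies on chromosome 5, 138465229 to 138465478, plus strand, and holds CArG boxes at positions -105 and -83 and an EGR site at position -198, counted from the RefSeq start. The JUND window lies on chromosome 19, 18281623 to 18281872, minus strand, and holds a CRE at position -200.
EGR1: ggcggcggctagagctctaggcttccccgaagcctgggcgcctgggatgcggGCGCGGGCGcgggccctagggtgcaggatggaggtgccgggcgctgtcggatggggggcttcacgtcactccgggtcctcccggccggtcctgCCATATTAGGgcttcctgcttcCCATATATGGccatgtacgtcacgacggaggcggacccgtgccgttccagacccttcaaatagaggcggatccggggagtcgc
JUND: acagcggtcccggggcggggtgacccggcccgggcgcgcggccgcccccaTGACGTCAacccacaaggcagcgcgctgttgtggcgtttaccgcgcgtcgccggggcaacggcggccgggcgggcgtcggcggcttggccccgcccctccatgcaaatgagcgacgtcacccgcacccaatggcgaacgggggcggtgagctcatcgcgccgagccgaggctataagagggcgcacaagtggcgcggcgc
Of 27305 RefSeq promoters of the same length, 6.60% held the TRE letters, 1.77% the CRE letters, 1.14% a CArG box and 8.25% the EGR site letters, against 0, 1, 1 and 1 of the 9 members.

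The libraries held between 18042924 and 20428901 counts. RBM39 mRNA was at 441, 448 and 435 CPM (counts scaled to a common library size with the TMM method of edgeR) in shCtrl and at 266, 276 and 292 CPM in shRBM39. The epithelial markers EPCAM, KRT8, KRT18, KRT19, CDH1 and VIL1 were abundant, from 10.3 RPKM for CDH1 upward, whereas KRT20 stayed under 1 RPKM and CDX1 had at most 2 counts in a library. The summed counts of the 8 epithelial markers were 245339 to 252462 in shCtrl and 264115 to 289346 in shRBM39. Most of that higher sum was KRT8, with 140632 to 144237 counts in shCtrl and 163881 to 179382 in shRBM39. In the edgeR fit of all genes, KRT8, KRT18 and KRT20 were called higher and CDH1 and VIL1 lower. Of 9 markers of blood, vessel, stromal and liver cells, PTPRC had 0 counts in every library, CD3E and COL1A2 had at most 3, and the summed counts were 238 to 263 in shCtrl and 337 to 410 in shRBM39. PECAM1 and COL1A1 were called higher among these. The share of counts on mitochondrial genes was 6.90% to 7.28% in shCtrl and 7.33% to 8.22% in shRBM39. The part of these markers and of mitochondrial reads in the results was not tested.

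The first question was how strongly each gene was expressed in the control cells. Levels were compared between genes in RPKM, the authors' read counts divided by the length of a gene's merged exons and by the library total. EGR1 stood highest in shCtrl at 42.3, 41.3 and 40.1 RPKM, above 93.55% of the genes tested. JUN followed at 38.4, 37.6 and 36.7 RPKM, and FOSL1 at 28.7, 27.2 and 26.1 RPKM. IER2 at 17.7 to 18.6 RPKM and JUND at 14.5 to 17.8 RPKM overlapped each other. JUNB lay at 9.53 to 12.3 RPKM. FOSL2 (3.28 to 3.34 RPKM), ATF3 (2.96 to 3.22 RPKM) and FOS (1.88 to 1.94 RPKM) were low. FOSB was lowest at 0.313 to 0.426 RPKM, with 34 to 46 counts per library. Apart from IER2 and JUND, no neighbours in this order overlapped in shCtrl. The order depends on dividing by the merged exons, which may be longer than the transcripts present. In CPM, without that division, JUN at 124 to 132 and EGR1 at 120 to 129 overlapped in shCtrl. FOS, the gene that names the family, was thus a minor transcript in these cells, and FOSL1 was the Fos member with the most mRNA.

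In shRBM39 the order at the top was different. FOSL1 was highest at 42.1, 39.8 and 39.5 RPKM, then JUN at 30.4, 31.8 and 31.2 RPKM, then EGR1 at 24.9, 26.8 and 26.0 RPKM, with no overlap between the 3 genes. In CPM, not divided by length, FOSL1 at 77.9 to 82.7 lay below JUN at 112 to 118 in shRBM39. IER2 and JUND again overlapped, and so did FOS at 1.24 to 1.59 RPKM and ATF3 at 1.04 to 1.48 RPKM. FOSB remained lowest at 0.178 to 0.1996 RPKM.

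**Figure D1:**
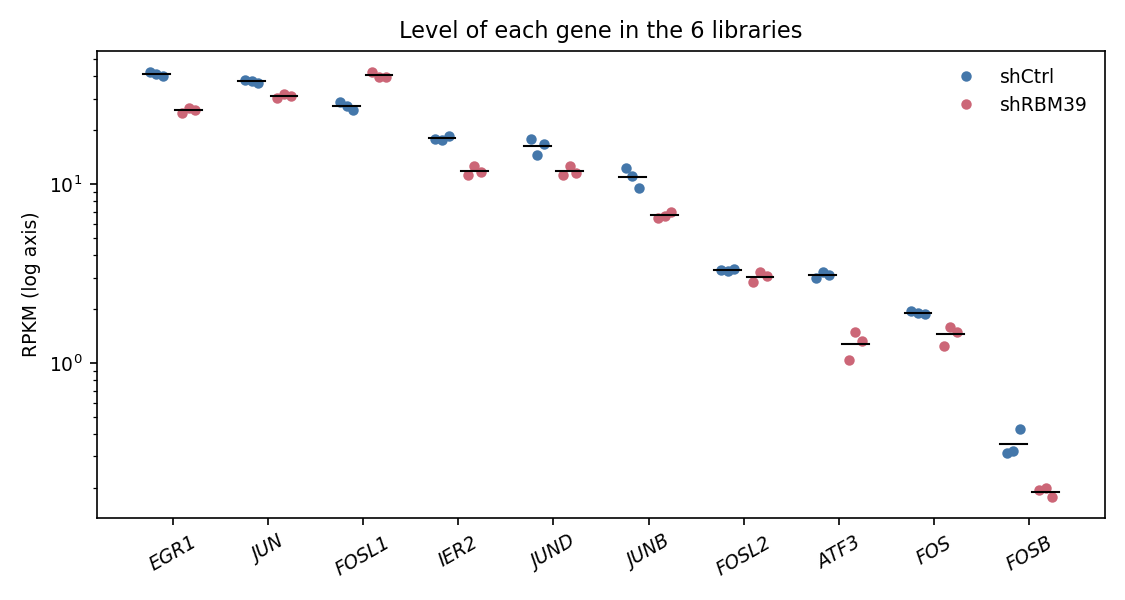
RPKM of the 10 genes (log axis) in the 3 shCtrl and 3 shRBM39 libraries, 1 point per library, with a bar at the mean of each group. FOSL1 is the gene whose shRBM39 points, 39.5 to 42.1 RPKM, all lie above its shCtrl points, 26.1 to 28.7 RPKM. FOSL2 lies at 3.28 to 3.34 RPKM in shCtrl and a little lower, at 2.85 to 3.21 RPKM, in shRBM39.

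Next, shRBM39 was compared with shCtrl in a fit of all 18243 tested genes with edgeR's quasi-likelihood test and Benjamini-Hochberg adjustment, in which all 10 members passed the filter on low counts. An adjusted p under 0.05 was reached by 9 members, 8 of them lower and 1 higher in shRBM39, where 59.1% of all tested genes were called, 29.9% as lower and 29.2% as higher. So many genes were called that 9 of 10 is no sharp contrast with the background. The 8 lower members stand beside a share of 29.9% over all tested genes. Because the members were chosen with earlier results of these data known, these shares describe the list and do not test it. The CPM values did not overlap between groups and were lower in shRBM39 for 8 members, against 32.3% of all tested genes. The median log2 fold change (shRBM39 minus shCtrl) was -0.42 over the members and -0.01 over all tested genes. In bulk libraries, less mRNA in every cell and fewer cells that express a gene cannot be told apart.

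Among the Fos genes, FOSL1 (chromosome 11, 65892049 to 65900573, GRCh38 as in the count table) was the only member that rose. It had 52.5, 49.0 and 47.1 CPM in shCtrl and 82.7, 78.7 and 77.9 CPM in shRBM39, so the lowest knockdown library lay far above the highest control. Its mean was 79.8 ± 2.61 against 49.5 ± 2.74 CPM (SD, n = 3), 1.61-fold higher. The log2 fold change was 0.69 (SE, the standard error, 0.05; edgeR adjusted p 9.29e-15). Its log2 fold change was above that of 93.7% of tested genes. FOSL2 (chromosome 2, 28392448 to 28417312), the other Fra gene, had 22.8, 22.4 and 22.9 CPM in shCtrl and 21.3, 24.1 and 22.8 CPM in shRBM39. The groups overlapped in CPM. The log2 fold change of -0.00 had an approximate 95% interval from -0.13 to 0.12 (1.96 standard errors), with an edgeR adjusted p of 0.983. A change of FOSL2 as large as that of FOSL1 is outside this interval. The overlap of FOSL2 depended on scaling: RPKM values were 3.28 to 3.34 in shCtrl and 2.85 to 3.21 in shRBM39. With library totals as the only scaling the log2 fold change of FOSL2 was -0.13 (edgeR adjusted p 0.0899).

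FOSB (chromosome 19, 45467995 to 45475179), an inducible Fos gene, had 1.69, 1.70 and 2.26 CPM in shCtrl and 1.12, 1.16 and 1.03 CPM in shRBM39. It fell by 0.77 on the log2 scale (SE 0.23, edgeR adjusted p 0.00447), but on 20 to 46 counts per library its size is uncertain, with an interval from -1.21 to -0.32. FOS (chromosome 14, 75278774 to 75282230) had 6.10, 5.89 and 5.81 CPM in shCtrl and 4.19, 5.40 and 5.06 CPM in shRBM39. The groups did not overlap, but shRBM39 replicate 2 lay close to the controls. FOS differed by -0.29 on the log2 scale (SE 0.12), and its edgeR adjusted p of 0.0445 was the weakest call of the members. FOS lost its call when shCtrl replicate 1, 2 or 3 or shRBM39 replicate 1 or 3 was left out, and its log2 fold change was -0.18 without shRBM39 replicate 1. With all libraries kept, FOS was also not called by DESeq2 (DESeq2 adjusted p 0.164) or without the filter on low counts (edgeR adjusted p 0.0768).

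The Jun genes were all lower in shRBM39. JUN (chromosome 1, 58780788 to 58784327), which like JUNB and JUND can pair with Fos proteins, had 132, 127 and 124 CPM in shCtrl and 112, 118 and 116 CPM in shRBM39. The groups did not overlap but lay close together, and the difference was -0.15 on the log2 scale (SE 0.04, edgeR adjusted p 0.00185), or -0.27 when libraries were scaled by their totals alone. JUNB (chromosome 19, 12791496 to 12793315), often described as a weaker activator than JUN, had 21.8, 19.3 and 16.6 CPM in shCtrl and 12.3, 12.6 and 13.3 CPM in shRBM39. Of the 3 Jun genes it changed most, and in the fit it fell by 33.7%, or -0.59 on the log2 scale (SE 0.08, edgeR adjusted p 2.12e-07), and its control libraries were spread more widely than its knockdown libraries. JUND (chromosome 19, 18279760 to 18281622), the Jun gene known for steady expression in resting cells, had 32.1, 25.8 and 29.7 CPM in shCtrl and 21.8, 24.6 and 22.4 CPM in shRBM39. JUND differed by -0.35 on the log2 scale (SE 0.07, edgeR adjusted p 5.29e-05). Its groups did not overlap, with shCtrl replicate 2 and shRBM39 replicate 2 nearest to each other.

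The 3 other members were lower in shRBM39 as well. ATF3 (chromosome 1, 212565334 to 212620777), a stress-induced bZIP protein and a target of ATF4, had 11.6, 12.4 and 12.1 CPM in shCtrl and 4.39, 6.27 and 5.58 CPM in shRBM39. In the fit it fell by 55.2%, the only member changed at least 2-fold, at -1.16 on the log2 scale (SE 0.11, edgeR adjusted p 1.68e-11), and 2.82% of tested genes lay lower. EGR1 (chromosome 5, 138465490 to 138469315) had 129, 123 and 120 CPM in shCtrl and 81.4, 88.02 and 85.3 CPM in shRBM39. It differed by -0.55 on the log2 scale (SE 0.04, edgeR adjusted p 1.9e-13), and in the fit it fell by 31.7%. IER2 (chromosome 19, 13150415 to 13154908) had 53.1, 51.7 and 54.6 CPM in shCtrl and 35.9, 40.5 and 37.4 CPM in shRBM39, -0.49 on the log2 scale (SE 0.05, edgeR adjusted p 2.72e-10).

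Exons of IER2 and JUNB overlap genes on the opposite strand, and the strand setting of the counting is not given in the sources used here. The symbol CTC-250I14.6 shares 946 bases with IER2 and was counted at 0.785 to 0.823 times the IER2 count in all 6 libraries. HOOK2 shares 259 bases with JUNB and was counted at 3.99 to 4.95 times JUNB in shCtrl and 5.66 to 6.21 times in shRBM39. How reads in the shared bases were assigned is therefore uncertain for both members.

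**Figure D2:**
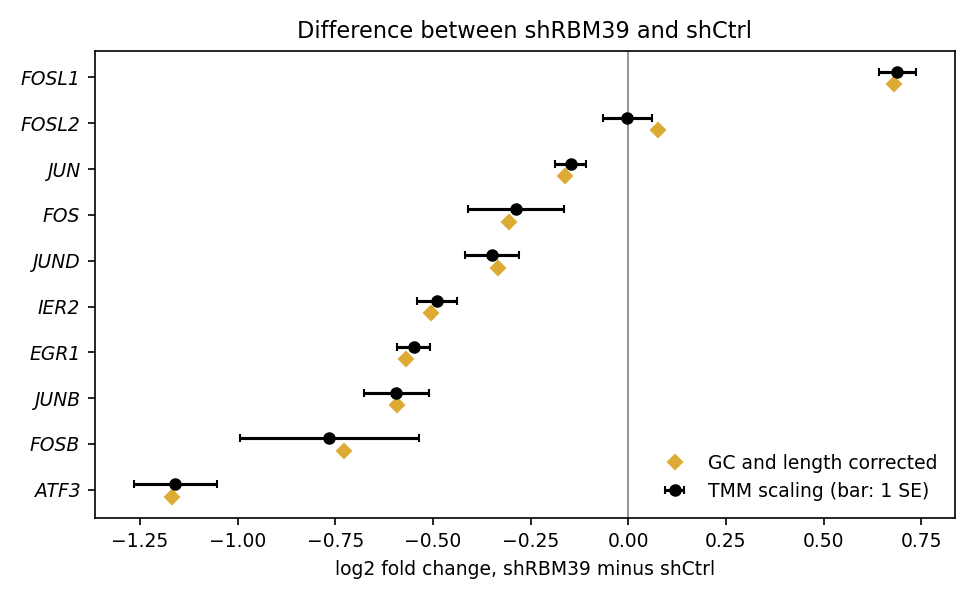
Log2 fold change of each gene (horizontal axis, shRBM39 minus shCtrl) in the edgeR fit with TMM scaling (black points, bars of 1 standard error) and corrected for the GC content and length of genes (diamonds). FOSL1 lies at 0.69, FOSL2 at -0.00, and the 8 other genes lie between -1.16 for ATF3 and -0.15 for JUN. The corrected values are close to the uncorrected ones, with FOSL2 at 0.08.

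Whether the mixture of AP-1 subunits shifted was asked with the share of each gene in the summed RPKM of its family within a library, which does not depend on scaling between libraries. FOSL1 made up 83.8%, 83.2% and 82.2% of the Fos family in shCtrl and 90.8%, 88.8% and 89.3% in shRBM39. FOSL1 thus supplied most Fos family mRNA in both groups, and its share was 6.58 points higher after knockdown. The share of FOSL2 was 10.1% ± 0.465 in shCtrl and 6.73% ± 0.518 in shRBM39, that of FOS 5.81% ± 0.117 and 3.20% ± 0.466, and that of FOSB 1.08% ± 0.231 and 0.422% ± 0.0218 (SD, n = 3). In the Jun family, JUN made up 57.9% ± 1.75 in shCtrl and 62.8% ± 0.438 in shRBM39, JUNB 16.9% ± 1.54 and 13.5% ± 0.536, and JUND 25.15% ± 1.89 and 23.8% ± 0.863 (SD, n = 3). JUND overlapped between groups (exact permutation p = 0.4), while the other 6 shares did not (exact permutation p = 0.1 each, two-sided, the smallest that 3 against 3 allows, and 0.117 adjusted over the 7 shares), so this design could not reach 0.05. The summed RPKM of the Jun family was 64.9 ± 3.15 in shCtrl and 49.6 ± 1.43 in shRBM39, and that of the Fos family 32.9 ± 1.26 and 45.1 ± 1.1 (SD, n = 3). With TMM scaling in place of library totals the sums were 62.3 and 51.9 for Jun and 31.6 and 47.15 for Fos. mRNA shares do not give the abundance or phosphorylation of the proteins.

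**Figure D3:**
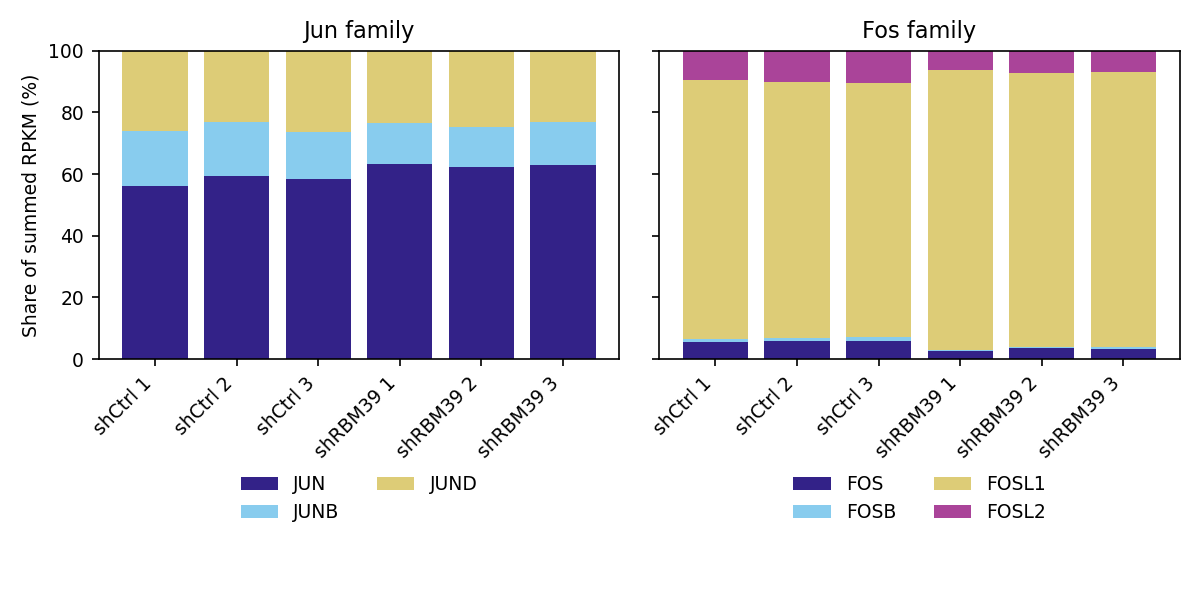
Share of each gene in the summed RPKM of the Jun family (left) and the Fos family (right), in percent, 1 bar per library. FOSL1 fills 82.2% to 83.8% of the Fos bars in shCtrl and 88.8% to 90.8% in shRBM39, and JUN fills 56.0% to 59.4% and 62.3% to 63.2% of the Jun bars.

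The surrounding pathway was described with lists of genes, by how many genes were called in each direction in the same edgeR fit (background 29.2% higher, 29.9% lower). These lists too were chosen with earlier results of these data known, so their counts are descriptions and not tests. Of 26 other immediate early genes, 23 could be tested: 4 were higher, 12 lower and 7 not called, with a median log2 fold change of -0.39. With library totals as the only scaling 2 were higher and 16 lower. MYC, the growth regulator, fell from 344 ± 17.4 to 177 ± 4.18 CPM, and the nuclear receptor gene NR4A2 from 10.9 ± 0.679 to 5.56 ± 0.424 CPM, whereas the kinase gene PLK2 rose from 6.74 ± 0.263 to 16.6 ± 1.24 CPM (SD, n = 3). Their log2 fold changes were -0.96, -0.98 and 1.30, with edgeR adjusted p of 1.46e-20, 3.62e-10 and 1.11e-14. The EGR1 paralogs EGR2 and EGR3, named here after their values were seen, also fell, at -0.98 and -1.21 with edgeR adjusted p of 4.69e-09 and 2.44e-05. EGR3 was low, at 2.26 to 2.63 CPM in shCtrl and 0.664 to 1.45 CPM in shRBM39. The paralog EGR4 had 4 to 8 counts per library in shCtrl and 6 to 9 in shRBM39, too few to be tested.

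Of 11 other bZIP genes whose proteins can pair within the AP-1 superfamily, 10 could be tested, 2 higher, 5 lower and 3 not called, with a median of -0.23. BATF rose by a log2 fold change of 0.68, while MAFK and the AP-1 repressor gene JDP2 were at -0.54 and -0.43 (edgeR adjusted p 3.89e-11, 3.88e-09 and 7.1e-09). MAF, named after its values were seen, was also called higher, at 0.0942 to 0.246 CPM in shCtrl and 0.723 to 0.817 CPM in shRBM39, a level near the limit of these libraries.

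The MAP kinase phosphatase genes are induced by the same kinases and switch them off. Of the 9, 0 were called higher, 7 lower and 2 not called, with a median of -0.49. DUSP6, which acts on ERK, fell from 114 ± 1.9 to 55.9 ± 2.98 CPM (SD, n = 3). On the log2 scale it was at -1.03 (edgeR adjusted p 4.99e-20), and DUSP16 and DUSP8 were at -1.14 and -2.06 (edgeR adjusted p 3.34e-17 and 8.38e-09). DUSP8 was low, at 2.33 to 3.44 CPM in shCtrl and 0.465 to 0.766 CPM in shRBM39. DESeq2 called 5 of the phosphatase genes lower, and library totals alone 8. Of 17 genes of the kinase cascades from RAS to ERK, JNK and p38, 4 were higher, 6 lower and 7 not called, with a median of -0.07, while 2 were higher and 9 lower with library totals as the only scaling and on each log2 RPKM scale, and 2 and 6 with upper-quartile scaling. The largest of these was the RSK kinase gene RPS6KA3 at -0.63, with HRAS at 0.38 and RPS6KA1 at 0.34 (edgeR adjusted p 1.2e-14, 1.7e-07 and 1.09e-06).

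SRF, which binds the CArG box, had 42.7 ± 1.29 CPM in shCtrl and 50.1 ± 0.644 CPM in shRBM39 (SD, n = 3). Its log2 fold change was 0.23, at an edgeR adjusted p of 8.16e-05. It was the 1 called gene of 6 serum response and ternary complex factors, whose median was -0.05, and under library totals alone the list had 0 higher and 3 lower. ELK1 and MKL1, the table's symbol for MRTFA, were at -0.08 and -0.12 (edgeR adjusted p 0.16 and 0.0548). Of 10 factors of mRNA decay at AU-rich elements or of AP-1 protein turnover, 4 were higher, 4 lower and 2 not called, with a median of -0.06, against 2 higher and 5 lower with library totals as the only scaling. HNRNPD, KHSRP and ZFP36L1, whose proteins all bind AU-rich elements, had log2 fold changes of 0.38, 0.29 and -0.35 (edgeR adjusted p 2.34e-11, 2.38e-08 and 7.88e-08).

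Of 16 genes often described as AP-1 targets, 10 could be tested, 6 higher, 1 lower and 3 not called, with a median of 0.23, but 2 were higher and 2 lower with library totals as the only scaling, and likewise on each log2 RPKM scale. VEGFA fell from 234 ± 9.16 to 79.7 ± 7.45 CPM, while CD44 was at 4.54 ± 0.46 against 2.54 ± 0.447 CPM and the urokinase gene PLAU at 6.36 ± 0.234 against 4.11 ± 0.633 CPM (SD, n = 3). Their log2 fold changes were -1.56, 0.85 and 0.63, with edgeR adjusted p of 6.15e-24, 1.76e-05 and 6.85e-05. The collagenase and stromelysin genes MMP1, MMP3, MMP9, MMP10 and MMP13 and the cytokine gene IL6 had too few counts to be tested. All 9 integrated stress response genes of the list, to which ATF3 is linked through ATF4, were lower, with a median of -1.22, and DDIT4, TRIB3 and ASNS were at -2.11, -1.73 and -2.08 (edgeR adjusted p 4.79e-23, 1.84e-22 and 1.92e-22).

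**Figure D4:**
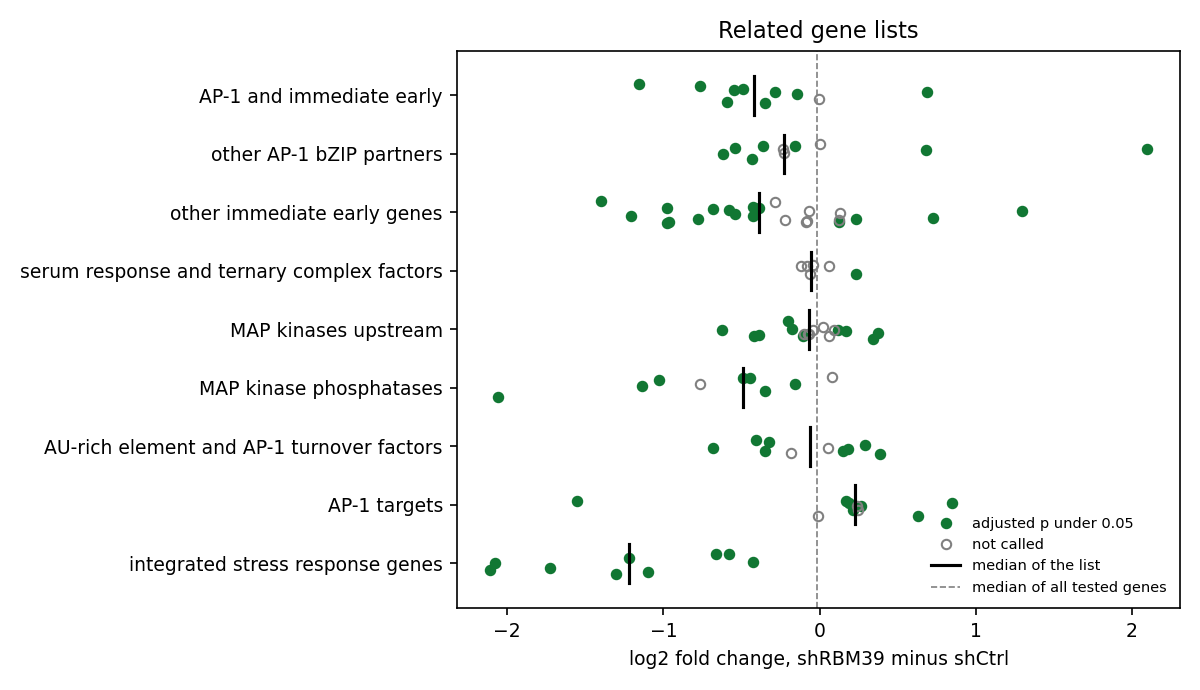
Log2 fold change (shRBM39 minus shCtrl) of every tested gene of the members and 8 related lists, 1 point per gene, filled where the adjusted p was under 0.05, with a bar at the median of the list and a dashed line at the median of all tested genes, -0.01. Cell type markers are not plotted. The medians of the lists plotted run from -1.22 for the integrated stress response genes to 0.23 for the AP-1 targets, a list whose calls were 2 higher and 2 lower under library totals alone.

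In gene structure, JUN, JUNB and JUND have a canonical transcript of 1 exon, as did 6.76% of the tested genes whose symbol had a canonical transcript in GENCODE v44. The 3′ untranslated region held 9 copies of the AU-rich pentamer ATTTA in FOSL2, 5 in FOS, 3 each in JUN, FOSB and ATF3, 2 in JUNB, 1 each in FOSL1, JUND and EGR1 and 0 in IER2. Of all tested genes with at least 3 copies, 36.0% were called lower and 28.1% higher. Of those with 0 copies, 27.3% were called lower and 37.3% higher. The 10 members all had a GC content above the median of tested genes, 49.3%, from 50.2% in ATF3 to 69.7% in JUND. The part of these features in the results was not tested, apart from the GC and length correction plotted above, after which 9 members were called in the same directions. None of the 10 genes had a record in the authors' table of splicing events that passed their thresholds, and splicing differences below these were not analysed here. The canonical transcripts of EGR1 and IER2 have 2 exons. Like those of the Jun genes they hold no internal exon, so for these members a skipped exon could not be found in that transcript.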

How the data were processed

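Libraries of SW480 mRNA were made by the study with a stranded kit and unique identifiers. Groups and replicate numbers came from the sample titles, and columns named NC were taken to hold the shCtrl libraries, as the labels give no other control. For each gene symbol the authors deposited raw counts and RPKM values, and the latter were recomputed from the counts to a relative difference of 5.1e-15. The submitters' processing notes name Trimmomatic 0.36, STAR 2.5.3a, featureCounts (Subread 1.5.1), edgeR 3.12.1 and GRCh38. Strand setting, multi-mapped reads and collapsing of identifiers are not given in the sources used here. Another table of the authors holds splicing comparisons (levels, differences, p-values), of which only gene names were used.

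The test was edgeR's quasi-likelihood test (edgeR 4.0.16 in R 4.3.3) on the counts after filterByExpr and TMM scaling. Group was the sole factor, and p-values were adjusted by Benjamini-Hochberg across every tested gene, with a threshold of 0.05. Standard errors came from the log2 fold change and its F statistic. The fit was tested on simulated counts. Within groups, replicate pairs differed by more than sampling noise (chi-square per degree of freedom 2.11 to 4.21). Family shares were compared by an exact two-sided permutation test. Scaling was also done by upper quartiles or by library totals alone. DESeq2 1.42.0 and limma-trend (limma 3.58.1) on log2(RPKM + 1) and log2(RPKM + 0.1) replaced the test. Other alternatives dropped the filter, required 10 counts per library, left out each replicate, or added a replicate block or a GC and length correction. Stricter calls used a threshold of 0.01 or tested for changes beyond 0.5 (log2).

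The members and lists were chosen with earlier results of these data known. Every member was named, and of each list the 3 genes with the lowest adjusted p, with exceptions stated; cell type markers were named to describe the cells. GENCODE v44 gave exon numbers and untranslated regions; 96.3% of 158461 exons of the table that were compared were identical to its exons, and 136 of 152 exons of the members. The lists were other immediate early genes, other bZIP partners, serum response and ternary complex factors, MAP kinases, MAP kinase phosphatases, AU-rich element and AP-1 turnover factors, AP-1 targets, integrated stress response genes, and epithelial and other cell type markers, of which 1 is not reported here by itself.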

Additional observations from a re-analysis of the deposited data

How the results depend on the processing

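Over 17 alternatives, the 9 called members kept their direction, and FOS alone lost its call other than in the test for changes beyond 0.5 (log2). That test and the threshold of 0.01 reuse the main log2 fold changes, so direction could not change in them. FOS was not called in 9 of the 17, and over all 17 its values ran from -0.41 to -0.18. With one replicate left out, FOS ranged from -0.36 to -0.18, FOSL1 from 0.66 to 0.74, ATF3 from -1.27 to -1.02 and JUN from -0.16 to -0.12. FOSL2, not called in any alternative, changed sign in 6. JUN was larger under library totals alone (-0.27) and on log2(RPKM + 1) and log2(RPKM + 0.1) (-0.26 and -0.27). FOSB was -0.18 on log2(RPKM + 1), a scale that shrinks changes of low genes. Library totals alone moved the median of all genes by -0.12 and of the members to -0.54, and the share of calls that were higher from 49.4% to 33.9%.

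The test against 0.5, which asks for a larger difference, called 2 members (FOSL1 and ATF3) and 2232 of all genes, against 10790. In it, 2 other bZIP partners, 6 other immediate early genes, 0 serum response and ternary complex factors, 1 MAP kinase, 3 phosphatases, 0 AU-rich element and turnover factors and 2 AP-1 targets were called. Of the 9 integrated stress response genes, 7 were called in it, all lower. The serum response list had 3 calls under upper-quartile scaling, library totals alone and both log2 RPKM scales, 2 with at least 10 counts in every library, and 1 to 2 with one replicate left out (2 without shCtrl replicate 3), where the main count was 1. The MAP kinases had 6 calls under DESeq2 and under an adjusted p under 0.01, against 10, and the AP-1 targets 4 under library totals alone and both log2 RPKM scales, against 7. The cause was not tested.

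Same-numbered libraries did not deviate together (correlations of -0.03 to 0.01). These values, from 3 libraries per group, cannot show whether same-numbered libraries were handled together. With a replicate block, 9 members and 10810 genes were called. Taken from raw counts in place of RPKM, the share of FOSL1 in the Fos family rose by 11.7 points, and those of FOSL2 and FOSB fell by 7.45 and 1.34 points. Depth limited FOSB most, at 20 to 46 counts per library.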

Other observations

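The member with the largest change at a mean of at least 5 CPM was ATF3. Among 12057 other genes at that level, those whose log2 CPM over the 6 libraries was most like that of ATF3 were CCDC92, ATF4 and ABHD14B, with Pearson's r of 0.999, 0.999 and 0.998. Their log2 fold changes were -1.67, -0.43 and -0.38. These correlations are a description: the 6 points share the group difference, and many genes of these libraries differ between the groups.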
